A study of Mus musculus with 6 samples.

Results

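The genes of the amino acid response that is driven by the transcription factor ATF4, together with a set of cytosolic aminoacyl-tRNA synthetases, were followed in RNA of mouse splenic dendritic cells. The 33 genes were picked by symbol for their known roles, not by a measured value, from the 23420 gene symbols of the count tables. Earlier results of these data were known when the list was made, so it is not independent of them. All 33 were listed there and all 33 passed the filter on low counts, among 14388 genes tested. They comprise 6 regulators and feedback genes, 7 genes of serine, asparagine and one-carbon synthesis, 7 amino acid transporter genes and 13 tRNA synthetase genes.

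The tables cover 3 TBK1-DKO libraries and 3 wild type (WT) libraries, all of strain C57BL/6, made from total RNA of freshly isolated splenic dendritic cells. The age is given as 8 weeks in the protocol and as 10 weeks in the sample characteristics. TBK1 is a kinase of innate immune signalling; what DKO stands for, the allele, any Cre driver and the sorting gate were not among the details at hand. The labels do not tell if the libraries are from separate animals, and the p-values therefore cover only the spread seen among these 6 libraries, which may be technical.

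Levels are reads per 1000000 gene reads after scaling between libraries (CPM), given as mean ± SD (n = 3 libraries per group). Gene reads numbered 45018389 to 47349648 in the TBK1-DKO libraries and 31077585 to 36145508 in the WT libraries. Tbk1 itself had 83.9, 79.2 and 83.8 CPM in TBK1-DKO, against 90.7, 80.8 and 83.7 CPM in WT, so its level over the whole gene did not separate the labels (log2 fold change -0.05, adjusted p = 0.63, edgeR quasi-likelihood test). Counts over a whole gene need not show the loss of part of it, so they do not check the label, and the groups are named by their labels throughout. Library TBK1-DKO 2 and library WT 1 stood apart from the other libraries of their groups, with a chi-square per degree of freedom over genes of 36.1 and 36.2 for TBK1-DKO 2 against TBK1-DKO 1 and 3, and of 12.6 and 14.1 for WT 1 against WT 2 and 3. Libraries TBK1-DKO 1 and 3 differed by 2.40 and WT 2 and 3 by 2.58. Some of the results that rest on the libraries that stood apart are given with and without them, but not all.

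The amino acid response works through translation. When amino acids run short, uncharged tRNAs activate the kinase GCN2 (gene Eif2ak4), which phosphorylates the initiation factor eIF2. General protein synthesis falls while the Atf4 mRNA is translated more, so that ATF4 protein can rise with little change of its mRNA. ATF4, paired with proteins of the C/EBP family, binds a composite element in its target genes and raises transcription of enzymes that make non-essential amino acids, of transporters that import the others, and of the synthetases that load amino acids onto tRNA. Phosphorylation of eIF2, by GCN2 or by related kinases, is known to respond to unfolded protein, haem shortage, viral RNA and tryptophan depletion, though not each in every cell type.

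The composite element has the core letters TGATGNAA. These letters were looked for on both strands of RefSeq promoter windows (GRCm38.p6, 250 bases before to 50 after each annotated start), which matched 26 of the 33 genes. The windows of 10 genes held the core (38.5%), beside 2.88% of the 10610 tested genes with a window and 3.97% of all 32851 windows. Since the list was built around the ATF4 response, that share describes the list and is not independent of it. The separate cyclic AMP element TGACGTCA was in 0 of the 26 genes and in 3.36% of the tested genes with a window. The stretches around the core are shown because the results below can be read against them; capitals mark the core in either orientation, and each stretch is written 5′ to 3′ on the strand of its gene.
Asns, chr6:7693214-7693243, minus strand: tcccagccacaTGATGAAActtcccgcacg
Slc7a11, chr3:50443642-50443690, minus strand: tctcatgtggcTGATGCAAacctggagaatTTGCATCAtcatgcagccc
Yars, chr4:129189895-129189924, plus strand: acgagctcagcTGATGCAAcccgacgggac
Aars, chr8:111033840-111033869, plus strand: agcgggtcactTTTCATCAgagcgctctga
Chac1, chr2:119351038-119351067, plus strand: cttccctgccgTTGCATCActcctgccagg
Trib3, chr2:152344028-152344057, minus strand: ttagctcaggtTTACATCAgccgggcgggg
Gars, chr6:55037960-55037989, plus strand: tggctgcgctaTTTCATCAtgcaccgggcg
Iars, chr13:49682126-49682155, plus strand: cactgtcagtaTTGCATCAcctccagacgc
Tars, chr15:11399655-11399684, minus strand: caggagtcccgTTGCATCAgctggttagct
Slc1a4, chr11:20332699-20332728, minus strand: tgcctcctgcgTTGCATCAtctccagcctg

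Measured from the annotated start, the core began 23 bases before it in Asns, 193 before it in Chac1, 30 before it in Gars, 15 before it in Tars and 4 before it in Slc1a4. The window of Slc7a11 held a pair of cores facing each other, at 66 and 47 bases before the start. The cores shown for Aars, Iars, Yars and Trib3 lay 9, 7, 3 and 14 bases after the start. A match is a description of letters in a window and not a measured binding site.

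Setting the groups against each other shows which of these transcripts differed between TBK1-DKO and WT splenic dendritic cells. In TBK1-DKO, 11 of the 33 genes rose, 0 fell and 22 were not called, at an adjusted p under 0.05 over all genes tested (edgeR's quasi-likelihood F test, adjusted by Benjamini and Hochberg's method). The genes that rose were Asns, Phgdh, Psat1 and Shmt2 of the biosynthetic group, Slc7a5, Slc7a11 and Slc38a2 of the transporters, and Aars, Cars, Mars and Yars of the synthetases. The largest changes were those of Slc7a11 (1.95-fold), Asns (1.83-fold) and Slc7a5 (1.55-fold); the other 8 genes rose by 1.16-fold to 1.29-fold. None of the 6 regulators passed the threshold, Atf4 included.

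The 11 genes called up are 33.3% of the 33, whereas 23.6% of all 14388 genes tested were called, 13.7% of all genes being up and 9.9% down. The log2 fold change was positive in 24 of the 33 (72.7%), beside 50.3% of all genes. Among the 21 members with a mean of 50 CPM or more over the 6 libraries, 7 rose and 0 fell, where 13.1% of the 4811 genes tested at that level rose and 9.69% fell. The median log2 fold change was 0.14 over the 33 genes and 0.00 over all genes tested. In 17 of the 33 genes (51.5%) every TBK1-DKO library lay above every WT library, beside 21.5% of all genes, and in 1 gene, Nars (3.03%), every TBK1-DKO library lay below, beside 19.5% of all genes. No member fell at an unadjusted p under 0.05 by edgeR (0 of 33), and DESeq2 and limma-voom also called 0 down. The number called up depended on the libraries. It was 6 without WT replicate 2, where 1336 of the 14689 genes tested rose. It was 7 without WT replicate 3, where 1433 of the 14678 genes tested rose. With all 6 libraries 1978 of the 14388 genes rose, so calls over all genes fell in these fits too. TBK1-DKO 1 and 3 against WT 2 and 3, without the libraries that stood apart, gave 18 members up and 5 down. That fit called 47.7% of the 14456 genes it tested, 24.2% up and 23.5% down. Its libraries were kept because they lay close to each other in these same data. That choice makes the spread within groups small and lowers its p-values.

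**Figure D1:**
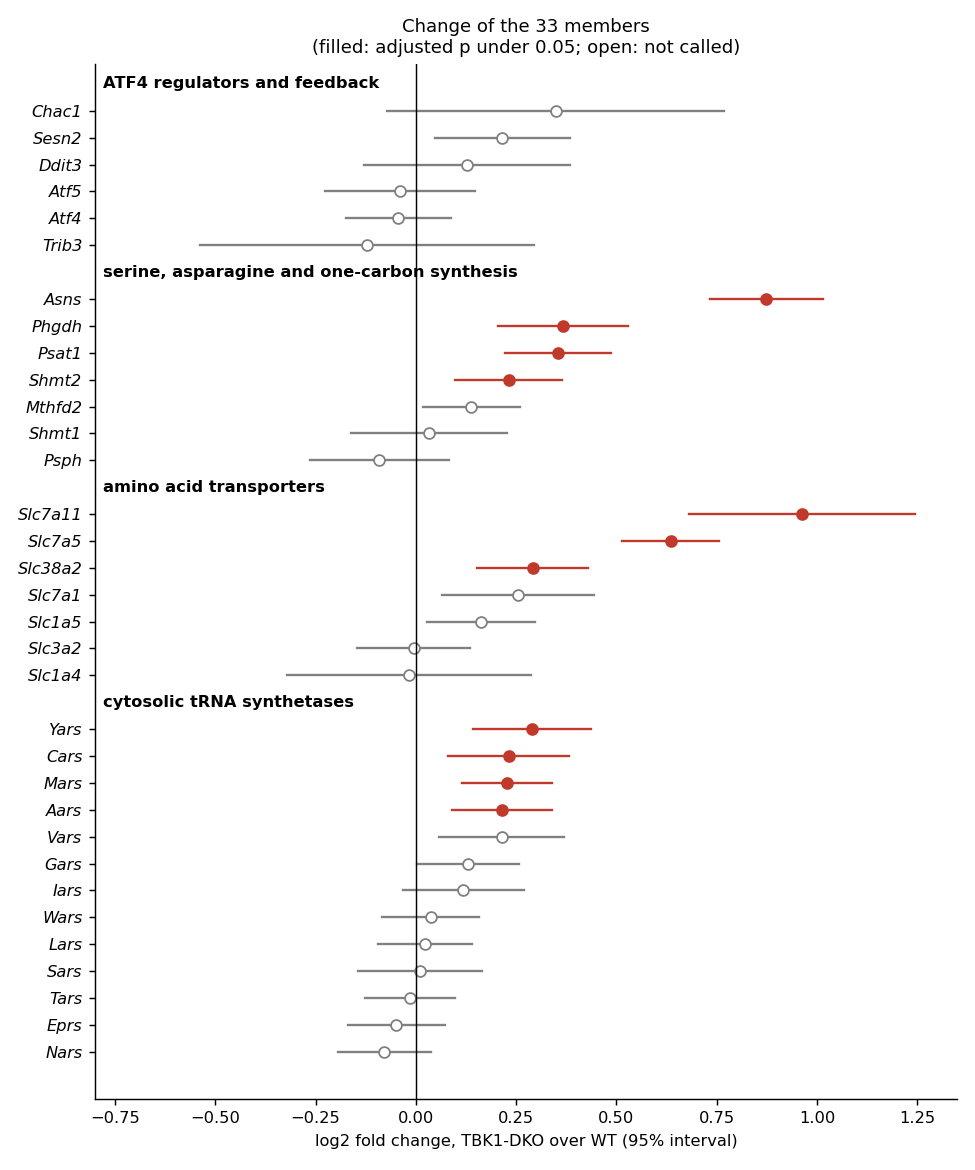
Log2 fold change (TBK1-DKO over WT, x axis) with its 95% interval for each of the 33 genes, ordered by size within 4 subgroups; filled points passed an adjusted p under 0.05. Asns, Slc7a11 and Slc7a5 stand to the right of the other genes, and the 6 regulators at the top hold no filled point.

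The libraries hold RNA of all cells isolated, and in such bulk samples fewer cells of a type and less RNA per cell cannot be told apart. Summed dendritic cell markers stood at 16628 ± 1259 CPM in TBK1-DKO and 17430.4 ± 977 CPM in WT, with 2 of 16 up and 6 down. High-level genes set that sum, Cd74 alone with 6374 ± 585 CPM in TBK1-DKO and 6618 ± 502 CPM in WT. Those down were Itgax, Irf8, Xcr1, Clec9a, Clec10a and Itgae, with log2 fold changes from -0.20 (Itgax) to -0.82 (Itgae). Those up were Zbtb46 (0.35) and Esam (0.75). The lowest count of any dendritic cell marker in any library was 322 reads, for Esam in WT 1, so none was near 0. Markers of other cells moved with the label. Plasma cell markers summed to 2282 to 2475 CPM in TBK1-DKO and 1507 to 1674 CPM in WT (8 of 10 up), and proliferation genes to 2930.4 to 3254 CPM in TBK1-DKO and 1868 to 2114 CPM in WT (14 of 15 up). Neutrophil genes were 2.40 times and erythroid genes 1.76 times as high in TBK1-DKO (11 of 11 and 9 of 9 up). Macrophage (0.693 times, 9 of 10 down), NK cell (0.690 times, 6 of 7 down), T cell (0.888 times, 5 of 9 down) and B cell genes (0.859 times, 4 of 9 down) were lower. The part of these shifts in the rises of the members was not tested.

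Of the 6 regulators and feedback genes edgeR called 0 up and 0 down (1 up and 0 down at an unadjusted p under 0.05; 0 and 0 by DESeq2 and by limma-voom), with a median log2 fold change of 0.04. Their summed level was 272 ± 12.6 CPM in TBK1-DKO and 273 ± 9.91 CPM in WT. Atf4 encodes the factor at the centre of the response. It had 205, 221 and 204 CPM in TBK1-DKO 1, 2 and 3 and 208, 222 and 220.0 CPM in WT 1, 2 and 3. The groups overlapped, and the value of -0.04 on the log2 scale (SE 0.06) was not called (adjusted p = 0.65, edgeR), with a 95% interval of -0.17 to 0.09. With trends of transcript length and GC content taken out per library the fall of Atf4 was called (log2 fold change -0.11, adjusted p = 0.018, edgeR), as it was in TBK1-DKO 1 and 3 against WT 2 and 3 (-0.12, adjusted p = 0.00022, edgeR). The p-value of that last fit is lowered by the choice of its libraries, kept for their closeness. In no setting run was Atf4 higher in TBK1-DKO.

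Ddit3 encodes CHOP, a factor induced downstream of ATF4 that promotes cell death in prolonged stress. It had 13.9, 18.9 and 14.3 CPM in TBK1-DKO and 14.3, 14.5 and 14.3 CPM in WT. Only TBK1-DKO 2 stood above the WT libraries, and the log2 fold change of 0.13 (SE 0.11, adjusted p = 0.48, edgeR) turned to -0.05 without that library. Chac1, a glutathione-degrading enzyme gene that ATF4 and CHOP induce, had 2.01, 2.33 and 2.38 CPM in TBK1-DKO and 1.72, 2.22 and 1.31 CPM in WT. The groups overlapped, and its 95% interval, from -0.07 to 0.77 on the log2 scale, was wide.

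Sesn2 encodes sestrin 2, a leucine sensor that restrains mTORC1. It had 33.6, 32.7 and 34.2 CPM in TBK1-DKO and 26.6, 28.1 and 31.8 CPM in WT. The groups did not overlap, with WT 3 nearest to the TBK1-DKO libraries; the log2 fold change of 0.22 (SE 0.08) missed the threshold (adjusted p = 0.066, edgeR) and passed it without WT replicate 3 (0.28, adjusted p = 0.034, edgeR). It was the only one of the 6 regulators at an unadjusted p under 0.05. Atf5, a related factor, stood at 9.99 ± 0.737 CPM in TBK1-DKO and 10.3 ± 0.137 CPM in WT. Trib3, a pseudokinase that feeds back on ATF4 and CHOP, was close to absent, with 37 to 45 reads in the TBK1-DKO libraries and 28 to 35 reads in the WT libraries. Its groups overlapped, with a log2 fold change of -0.12 (95% interval -0.54 to 0.29). Chac1 and Trib3 both carry the core shown above.

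In the biosynthetic group 4 of 7 genes rose and 0 fell, 3 were without a call, and the list had a median log2 fold change of 0.23. The summed level was 347 ± 12.3 CPM in TBK1-DKO and 281 ± 9.27 CPM in WT, a ratio of 1.23. Asns (chromosome 6, 7675169 to 7693254) encodes asparagine synthetase and is the classical target of the composite element, shown first above. It had 45.8, 47.2 and 44.1 CPM in TBK1-DKO and 25.9, 25.2 and 23.8 CPM in WT. The lowest TBK1-DKO library, at 44.1 CPM, lay far above the highest WT library, at 25.9 CPM. It rose by 0.87 on the log2 scale (SE 0.06; adjusted p = 9.5e-06, edgeR) with a 95% interval of 0.73 to 1.01, and it stayed between 0.83 and 0.90 under the 19 alternatives run.

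Serine is made from a glycolytic intermediate by phosphoglycerate dehydrogenase (Phgdh), phosphoserine aminotransferase (Psat1) and phosphoserine phosphatase (Psph) in turn. Phgdh (chromosome 3, 98313170 to 98339990) had 76.7, 84.3 and 75.9 CPM in TBK1-DKO and 55.6, 65.0 and 63.1 CPM in WT. Psat1 (chromosome 19, 15904678 to 15947337) had 38.5, 39.1 and 39.5 CPM in TBK1-DKO and 29.6, 31.8 and 30.2 CPM in WT. Psph had 15.7, 17.1 and 15.0 CPM in TBK1-DKO and 16.5, 17.7 and 16.7 CPM in WT. The first 2 enzymes were higher in every TBK1-DKO library, whereas the groups overlapped for the last. The log2 fold changes were 0.37 for Phgdh (SE 0.07, adjusted p = 0.0048) and 0.35 for Psat1 (SE 0.06, adjusted p = 0.0017), by edgeR, and both were called under all 19 alternatives, DESeq2 and limma-voom among them. Phgdh was highest in TBK1-DKO 2 and lowest in WT 1, the libraries that stood apart. Over the 19 alternatives its value ran from 0.24 to 0.40, and that of Psat1 from 0.32 to 0.37. For Psph the value was -0.09 (95% interval -0.26 to 0.08, adjusted p = 0.45, edgeR). Of the annotated exon bases of Psph, 10.4% are shared with Cct6a on the other strand, and reads there could not be told apart.

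Serine hydroxymethyltransferases pass a carbon unit from serine to folate, in mitochondria by Shmt2 and in the cytosol by Shmt1, and Mthfd2 oxidises the mitochondrial product. Shmt2 (chromosome 10, 127517123 to 127522444) had 85.2, 96.5 and 88.3 CPM in TBK1-DKO and 76.2, 76.8 and 76.9 CPM in WT. It was highest in TBK1-DKO 2, and the groups did not overlap. Its log2 fold change was 0.23 (SE 0.06, adjusted p = 0.019, edgeR) and ran from 0.15 to 0.27 over the 19 alternatives. With WT replicate 2 left out it missed the threshold (0.22, adjusted p = 0.105), as it did with WT replicate 3 left out (0.22, adjusted p = 0.089). Mthfd2 had 63.8, 62.7 and 63.3 CPM in TBK1-DKO and 55.9, 59.8 and 56.8 CPM in WT. The groups did not overlap, but the log2 fold change of 0.14 (95% interval 0.02 to 0.26) was not called (adjusted p = 0.094, edgeR). Shmt1 stood at 13.9 ± 0.647 CPM in TBK1-DKO and 13.6 ± 1.25 CPM in WT and was not called (log2 fold change 0.03, adjusted p = 0.83, edgeR).

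Among the 7 transporter genes there were 3 rises, 0 falls and 4 without a call, and a median log2 fold change of 0.25. Their levels summed to 887 ± 18.7 CPM in TBK1-DKO and 759.8 ± 11.6 CPM in WT. Slc7a5 (chromosome 8, 121881150 to 121907694) encodes LAT1, the light chain of the exchanger that brings in leucine and other large neutral amino acids. It had 89.0, 85.4 and 88.5 CPM in TBK1-DKO and 58.0, 54.4 and 56.9 CPM in WT. The groups were far apart relative to the spread within them, and its rise was 0.64 on the log2 scale (SE 0.05; adjusted p = 2.7e-05, edgeR), with a 95% interval of 0.51 to 0.76.

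Slc7a11 (chromosome 3, 49892526 to 50443614) encodes xCT, the light chain of the cystine-glutamate exchanger that supplies cysteine for glutathione. It had 14.5, 11.4 and 13.8 CPM in TBK1-DKO and 7.95, 5.97 and 6.51 CPM in WT. TBK1-DKO 2 was the lowest library of its group and WT 1 the highest of its own, yet the groups did not overlap. With all 6 libraries it rose by 0.96 on the log2 scale (SE 0.13; adjusted p = 0.00039, edgeR), with a 95% interval of 0.68 to 1.25. In TBK1-DKO 1 and 3 against WT 2 and 3 it was 1.17, the highest of the 19 alternatives, and the lowest was 0.86. The pair of cores facing each other in its promoter window was found in no other window matched to the 33 genes.

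Slc3a2 encodes 4F2hc (CD98), the heavy chain that carries both of these light chains to the membrane. It had 166, 176 and 166 CPM in TBK1-DKO and 158, 174 and 179 CPM in WT. The groups overlapped widely, and the log2 fold change of -0.01 (95% interval -0.15 to 0.13) was not called (adjusted p = 0.96, edgeR). TBK1-DKO 1 and 3 against WT 2 and 3 gave a called fall of Slc3a2 (-0.097, adjusted p = 0.0055, edgeR). The choice of libraries lowers the p-value of that fit. Per length, Slc7a5 stood at 0.278, 0.251 and 0.275 times the level of Slc3a2 in the TBK1-DKO libraries and at 0.190, 0.162 and 0.165 times in the WT libraries. The heavy chain mRNA was thus several times as abundant as the LAT1 mRNA in every library, and the ratio differed between the groups without overlap. The ratio was formed after the values had been seen and was not tested.

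Slc38a2 (chromosome 15, 96687392 to 96699730), which encodes the sodium-coupled neutral amino acid transporter SNAT2, had 282, 263 and 285 CPM in TBK1-DKO and 239, 225 and 215 CPM in WT. It was higher in every TBK1-DKO library, by 0.29 on the log2 scale (SE 0.06, adjusted p = 0.0071, edgeR). Slc7a1, the arginine and lysine transporter gene, had 84.3, 68.4 and 86.8 CPM in TBK1-DKO and 65.9, 67.1 and 67.8 CPM in WT. TBK1-DKO 1 and 3 stood well above the WT libraries and TBK1-DKO 2 just above them. Its log2 fold change of 0.25 (SE 0.08) missed the threshold (adjusted p = 0.055, edgeR) and passed it without TBK1-DKO replicate 2 (0.33, adjusted p = 0.00032, edgeR). Slc7a1 was called in 7 of the 19 alternatives. With all 6 libraries DESeq2 called it (adjusted p = 0.045) and limma-voom did not (adjusted p = 0.069). Slc1a5, the glutamine transporter gene, stood at 258 ± 5.34 CPM in TBK1-DKO and 231 ± 13.6 CPM in WT without overlap and was not called (log2 fold change 0.16, adjusted p = 0.083, edgeR). Slc1a4, a transporter gene for alanine, serine and cysteine that carries the core, stood at 2.35 ± 0.221 CPM in TBK1-DKO and 2.38 ± 0.198 CPM in WT (log2 fold change -0.02, 95% interval -0.32 to 0.29).

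**Figure D2:**
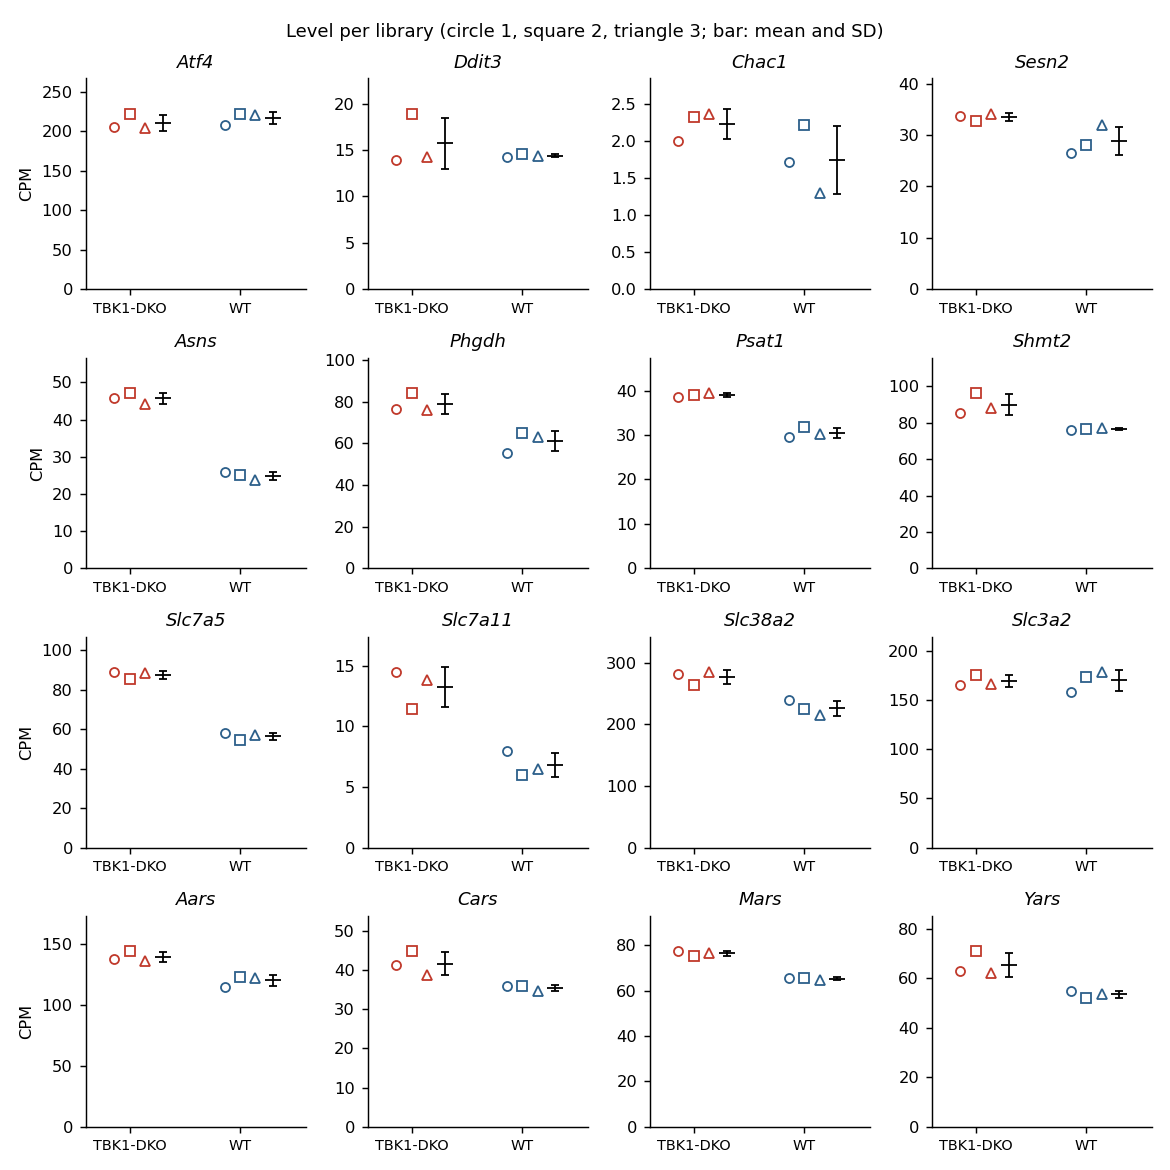
Level in CPM (y axis, from 0) of 16 of the 33 genes in each library, TBK1-DKO at the left and WT at the right of each panel; circles, squares and triangles are libraries 1, 2 and 3, and bars give mean and SD (n = 3). Asns, Slc7a5 and Slc7a11 show a clear step between the groups, Atf4 and Slc3a2 do not, and Ddit3 is raised in TBK1-DKO 2 alone.

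Cytosolic aminoacyl-tRNA synthetases each load 1 or more amino acids onto their tRNAs. Of the 13 genes, 4 rose and none of the other 9 was called, for a median log2 fold change of 0.12. Summed, they held 1594 ± 32.8 CPM in TBK1-DKO and 1482 ± 22.6 CPM in WT, a ratio of 1.08. The 4 that rose serve tyrosine, cysteine, methionine and alanine. Yars (chromosome 4, 129189760 to 129219607) had 62.8, 71.0 and 62.3 CPM in TBK1-DKO and 54.9, 51.8 and 53.7 CPM in WT. Mars (chromosome 10, 127296221 to 127311786) had 77.5, 75.5 and 76.5 CPM in TBK1-DKO and 65.6, 65.8 and 64.7 CPM in WT. In both genes every TBK1-DKO library was higher, with TBK1-DKO 2 the highest for Yars.

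Cars (chromosome 7, 143557230 to 143600090) had 41.3, 44.8 and 38.7 CPM in TBK1-DKO and 35.9, 35.9 and 34.6 CPM in WT. Aars (chromosome 8, 111033144 to 111057664) had 138, 144 and 136 CPM in TBK1-DKO and 115, 123 and 122 CPM in WT. Neither gene overlapped between the groups. Of the annotated exon bases of Aars, 14.3% are shared with Exosc6 on the same strand, so its level is less certain. The log2 fold changes were 0.29 for Yars (SE 0.07, adjusted p = 0.0097), 0.23 for Mars (SE 0.05, adjusted p = 0.0088), 0.23 for Cars (SE 0.07, adjusted p = 0.033) and 0.21 for Aars (SE 0.06, adjusted p = 0.02), all by edgeR.

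These 4 calls depended on which libraries were used. Without WT replicate 2 edgeR called 0 of the 13 synthetase genes, with adjusted p = 0.08 for Yars, 0.058 for Mars, 0.13 for Cars and 0.084 for Aars. Without WT replicate 3 it also called 0, with adjusted p = 0.053, 0.056, 0.15 and 0.076 in the same order. Calls over all genes were fewer in these fits as well, 2308 and 2476 against 3402 with all 6 libraries. The log2 fold changes without WT replicate 2 were 0.25, 0.22, 0.23 and 0.22 in that order. All 4 synthetase calls held without TBK1-DKO replicate 3. They held also in TBK1-DKO 1 and 3 against WT 2 and 3, where the choice of libraries lowers the p-values. Without TBK1-DKO replicate 1 the calls of Cars (adjusted p = 0.086) and Aars (adjusted p = 0.064) were lost. The call of Cars was lost also without TBK1-DKO replicate 2 (adjusted p = 0.067) and without WT replicate 1 (adjusted p = 0.058). The 4 log2 fold changes were positive in every setting run, between 0.14 and 0.32.

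The remaining synthetase genes split between small positive values and values near 0. Vars, for valine, had 403, 436 and 416 CPM in TBK1-DKO and 333, 358 and 390.3 CPM in WT. The groups did not overlap, and the log2 fold change of 0.21 (SE 0.07) fell just short of the threshold (adjusted p = 0.052, edgeR). DESeq2 (adjusted p = 0.035) and limma-voom (adjusted p = 0.047) called it. In TBK1-DKO 1 and 3 against WT 2 and 3 the log2 fold change of Vars was 0.12. Gars, for glycine, had 105, 111 and 102 CPM in TBK1-DKO and 97.1, 98.6 and 94.6 CPM in WT without overlap (log2 fold change 0.13, adjusted p = 0.13, edgeR). Iars, for isoleucine, overlapped (log2 fold change 0.12). Wars, Lars, Sars, Tars and Eprs, which serve tryptophan, leucine, serine, threonine, and glutamate with proline, lay between -0.05 and 0.04 on the log2 scale, and their groups overlapped.

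Nars, for asparagine, went the other way. It had 158, 159 and 152 CPM in TBK1-DKO and 165, 167 and 164 CPM in WT. Every TBK1-DKO library was lower, but the log2 fold change of -0.08 (95% interval -0.19 to 0.04) was not called (adjusted p = 0.32, edgeR). Asparagine synthetase and the asparaginyl-tRNA synthetase gene thus had values of opposite sign in the same libraries. TBK1-DKO 1 and 3 against WT 2 and 3 gave a called fall of Nars (-0.10, adjusted p = 0.0037, edgeR). As for Atf4, the choice of libraries lowers the p-value of that fit.

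Set beside the promoter stretches, the core stood in the window of 4 of the 9 genes that rose and had a window, Asns, Slc7a11, Aars and Yars. It also stood in the window of 6 of the 17 genes with a window that were not called, Chac1, Trib3, Gars, Iars, Tars and Slc1a4. The 2 genes with the largest changes both held it, and so did Tars, whose groups overlapped (69.0 ± 0.523 CPM in TBK1-DKO and 69.7 ± 0.939 CPM in WT). No test was made of these counts.

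Levels of different genes were compared per kilobase of the principal transcript and 1000000 gene reads (RPKM). Atf4 was the highest of the 33, at 122 RPKM in TBK1-DKO and 126 RPKM in WT. Vars (101 and 87.2 RPKM in TBK1-DKO and WT), Slc1a5 (93.4 and 83.5 RPKM) and Slc3a2 (93.1 and 93.5 RPKM) followed. The lowest were Trib3 (0.426 RPKM in TBK1-DKO and 0.463 RPKM in WT), Slc1a4 (0.598 and 0.606 RPKM), Chac1 (1.37 and 1.07 RPKM) and Slc7a11 (1.44 and 0.739 RPKM). The stress-induced genes Trib3 and Chac1 were thus scarce in both groups, while the mRNA of Atf4 was abundant in both. Asns stood at 22.7 RPKM in TBK1-DKO, next to Yars, Iars and Lars (22.5 to 23.1 RPKM). In WT it stood at 12.4 RPKM, below every synthetase gene but Cars.

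**Figure D3:**
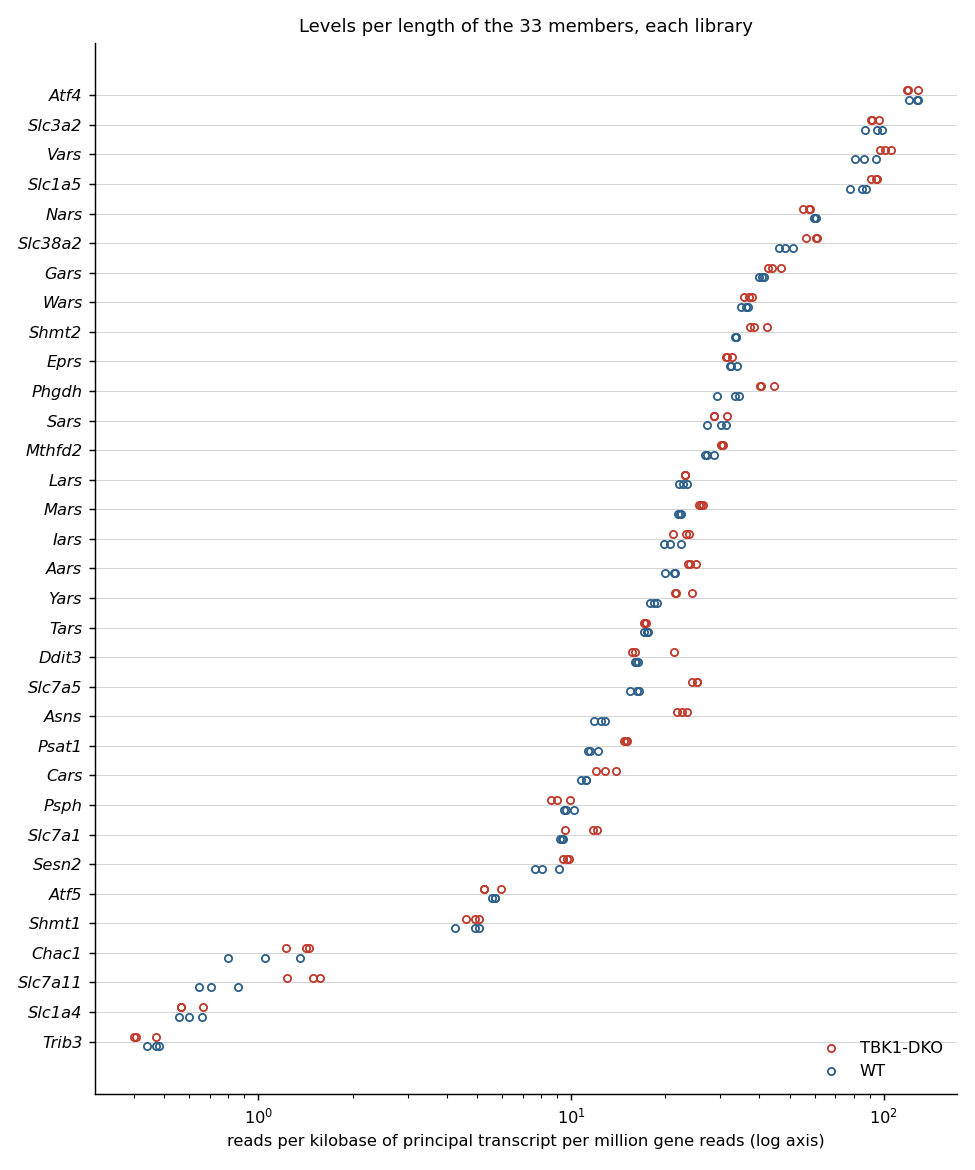
Level per length of the 33 genes (x axis, reads per kilobase of principal transcript and 1000000 gene reads, log axis), 1 point per library, TBK1-DKO above WT in each row, ordered by the WT mean. Levels run from 0.426 RPKM (Trib3) to 122 RPKM (Atf4) in TBK1-DKO; Asns, Slc7a5 and Slc7a11 are displaced to the right of their WT points.

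Other genes of the pathway were examined through lists chosen by known role. Of 10 further cytosolic synthetase genes and complex scaffold genes, 0 rose and 0 fell by edgeR (2 and 0 at an unadjusted p under 0.05; 0 and 0 by DESeq2 and by limma-voom), with a median log2 fold change of 0.06. Of 17 mitochondrial synthetase genes 1 rose, Yars2 (log2 fold change 0.24, adjusted p = 0.047, edgeR), a call lost under 11 of the 19 alternatives, DESeq2 among them (adjusted p = 0.104); over the 19 its adjusted p ran from 0.011 to 0.18. Lars2 spanned 249.9 to 814 CPM in TBK1-DKO and 159 to 358 CPM in WT, a spread that set the summed level of that list. The synthetase genes outside the 33 thus held 1 call, while 13.7% of all genes tested were called up.

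Among 14 genes of the eIF2 kinases, phosphatases and eIF2B, 2 rose, 0 fell and 12 were not called. Of all genes tested 13.7% were called up and 9.9% down, so the 2 rises are near the share over all genes. Eif2ak1, the haem-regulated kinase gene, had 172, 170.0 and 169 CPM in TBK1-DKO and 137, 142 and 141 CPM in WT. All TBK1-DKO libraries were higher, by 0.28 on the log2 scale (SE 0.05, adjusted p = 0.0029, edgeR). Gcn1l1, the co-activator of GCN2, rose by 0.25 (SE 0.06, adjusted p = 0.02, edgeR). Leaving out TBK1-DKO 1, TBK1-DKO 3, WT 1 or WT 2 ended that call (adjusted p = 0.055 to 0.103). Eif2ak4, the gene of the amino acid sensor GCN2 itself, was not called (log2 fold change -0.08, 95% interval -0.24 to 0.08). 

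The 20 other listed ATF4 targets gave a mixed picture: of 18 tested, 4 rose, 1 fell and 13 were not called, with a median log2 fold change of 0.08. Over all genes tested 13.7% rose and 9.9% fell. Atf3, a stress-induced factor that ATF4 raises, fell to 27.8, 30.3 and 27.8 CPM in TBK1-DKO, against 49.0, 51.3 and 48.2 CPM in WT. Its log2 fold change of -0.79 (SE 0.06, adjusted p = 1.7e-05, edgeR) is opposite in sign to that of Asns. Gdf15, a stress-induced cytokine gene, had 3.24, 3.01 and 3.22 CPM in TBK1-DKO and 0.668, 1.22 and 1.72 CPM in WT. Both genes were separated without overlap, and Gdf15 rose by 1.38 (SE 0.24, adjusted p = 0.002, edgeR). Pycr1, of proline synthesis, rose by 0.72 (adjusted p = 0.0054, edgeR) at a low level of 2.70 ± 0.176 CPM in TBK1-DKO and 1.64 ± 0.231 CPM in WT. Cdkn1a, a cell cycle inhibitor gene, rose by 0.48 (adjusted p = 0.0054, edgeR).

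Among 13 tested genes of folate one-carbon metabolism outside the 33, 5 rose, 1 fell and 7 were not called. The shares over all genes were 13.7% up and 9.9% down. Mthfd1l, the mitochondrial formate-releasing enzyme gene, rose to 60.1 ± 0.968 CPM in TBK1-DKO, against 47.6 ± 1.74 CPM in WT (log2 fold change 0.34, SE 0.06, adjusted p = 0.0016, edgeR). Tyms, of thymidylate synthesis, rose by 0.45 (adjusted p = 0.00044, edgeR). Aldh1l1, a folate dehydrogenase gene, fell by 0.65 (adjusted p = 0.0013, edgeR).

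Of 15 other amino acid transporter genes, 3 rose, 3 fell and 9 were not called, beside 13.7% of all genes up and 9.9% down. Slc6a9, a glycine transporter gene, had 52.5, 52.2 and 54.4 CPM in TBK1-DKO and 25.6, 26.7 and 26.9 CPM in WT. Slc43a1, a further transporter gene for large neutral amino acids, had 105, 112 and 104 CPM in TBK1-DKO and 62.0, 66.6 and 60.6 CPM in WT. Slc7a2, an arginine transporter gene, stood at 9.22 ± 1.44 CPM in TBK1-DKO and 0.905 ± 0.337 CPM in WT. These 3 genes rose by 1.01 (SE 0.06), 0.76 (SE 0.06) and 3.34 (SE 0.22) on the log2 scale. Slc7a8, another light chain that pairs with Slc3a2, fell by 0.33 (SE 0.06, adjusted p = 0.002, edgeR). Slc7a7, a light chain for exchange of basic with neutral amino acids that was named after its value was seen, fell too (log2 fold change -0.26, adjusted p = 0.013, edgeR), and Slc7a6 was not called (-0.08). The light chain genes therefore differed in direction, Slc7a5 and Slc7a11 up and Slc7a7 and Slc7a8 down. The heavy chain gene was not called in the main fit.

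Chaperone genes controlled by the other arms of the unfolded protein response moved as well: of 20, 8 rose, 1 fell and 11 were not called, with a median log2 fold change of 0.13. Over all genes tested 13.7% rose and 9.9% fell. Creld2 rose to 57.4, 67.5 and 58.8 CPM in TBK1-DKO, against 36.1, 44.0 and 40.5 CPM in WT. Xbp1, the factor that drives secretory capacity and is also among the plasma cell markers, had 216, 232 and 219 CPM in TBK1-DKO and 177, 168 and 161 CPM in WT. Creld2 rose by 0.61 (SE 0.09, adjusted p = 0.00071) and Xbp1 by 0.40 (SE 0.06, adjusted p = 0.00082), while Dnajb9 fell by 0.40 (SE 0.07, adjusted p = 0.0018), all by edgeR. Of 19 genes of amino acid sensing by mTORC1, 2 rose, 1 fell and 16 were not called (13.7% up and 9.9% down over all genes). Those called were Gatsl2 (0.33), Nprl3 (0.23) and Mios (-0.24), and all 3 calls were lost without TBK1-DKO replicate 1 (adjusted p = 0.0854, 0.0734 and 0.131, edgeR), WT replicate 1 (0.0666, 0.108 and 0.131) or WT replicate 2 (0.116, 0.0856 and 0.0577). Without TBK1-DKO replicate 3 those of Gatsl2 (0.09) and Nprl3 (0.158) were lost, and without WT replicate 3 those of Nprl3 (0.115) and Mios (0.0888). In TBK1-DKO 1 and 3 against WT 2 and 3, an alternative added after seeing the data for these lists, the calls up and down were 1 and 1 for the further cytosolic synthetases, 2 and 2 for the mitochondrial ones, 4 and 1 for the eIF2 genes and 7 and 3 for the other ATF4 targets. They were 7 and 3 for the folate genes, 8 and 4 for the transporters, 10 and 5 for the chaperones and 4 and 2 for the mTORC1 genes. In that fit 24.2% of all genes were called up and 23.5% down.

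**Figure D4:**
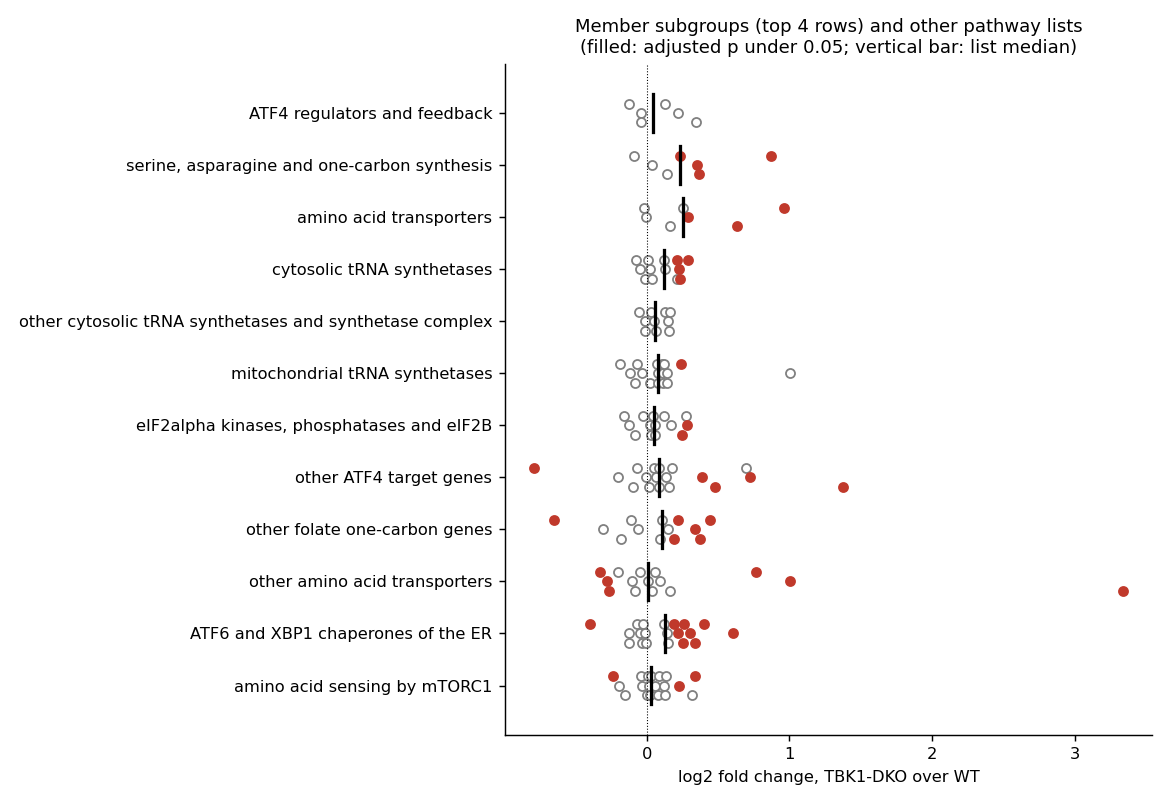
Log2 fold change (TBK1-DKO over WT, x axis) of every tested gene of the 4 subgroups (top 4 rows) and of 8 other pathway lists; filled points passed an adjusted p under 0.05 and vertical bars mark list medians. The point at 3.34 is Slc7a2 and the leftmost filled point is Atf3 at -0.79.

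Across the alternatives, 6 of the 11 genes kept their call in every one of the 19 run: Asns, Phgdh, Psat1, Slc7a5, Slc7a11 and Slc38a2. The other 5, Shmt2, Aars, Cars, Mars and Yars, lost it in at least 2 alternatives and were positive in all of them. The genes not called but higher without overlap were 6, Sesn2, Mthfd2, Slc7a1, Slc1a5, Gars and Vars.

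**Figure D5:**
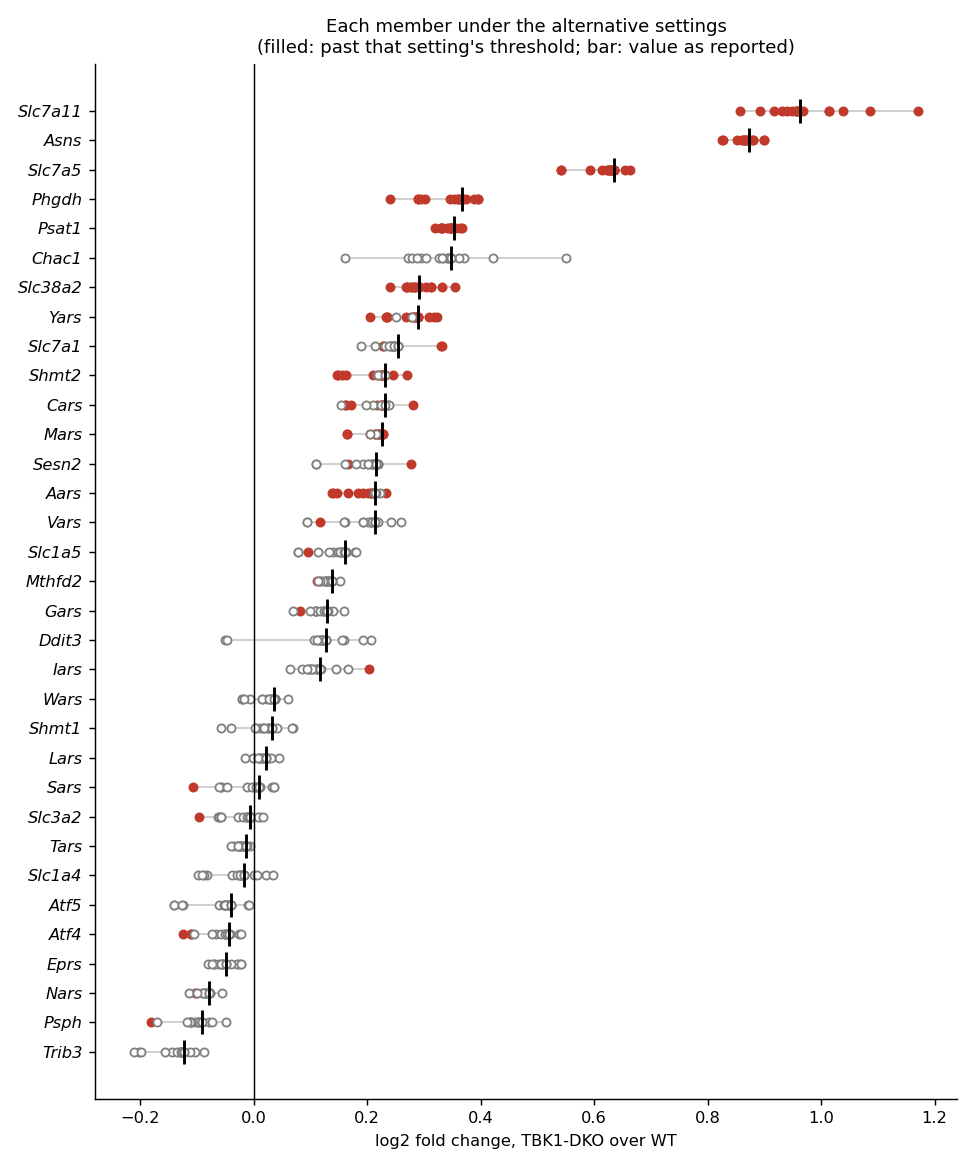
Log2 fold change (TBK1-DKO over WT, x axis) of each of the 33 genes under the alternative settings, 1 point per setting, with the value as reported as a bar; filled points passed that setting's threshold. The points of Asns run from 0.83 to 0.90 and those of Slc7a11 from 0.86 to 1.17, whereas those of Ddit3 cross 0.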

How the data were processed

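Each library came as 1 deposited table of raw read counts by gene symbol. The submitters' processing notes name TopHat, TopHat2, HTSeq and DESeq2 and the build mm10, without versions; how strand was handled and which annotation was used are not known here. Rows of the tables that name no gene (8.20% to 10.7% of counted records) were left out.

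The main test used edgeR 4.0.16 (R 4.3.3) on these counts: filterByExpr with a minimum count of 10, TMM scaling, robust dispersions and the quasi-likelihood F test without covariates, with Benjamini-Hochberg adjustment over 14388 genes. Standard errors came from the F statistic, and intervals are 95%. Alternatives used DESeq2 1.42.0 and limma 3.58.1. On simulated counts for this comparison (14412 genes tested), edgeR called 36% of the genes given a log2 change of 0.3, 88% of those given 0.585 and 98% of those given 1, and 6.94% of its calls were unchanged genes.

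The members, lists and the rule for named genes (all 33 members; up to 4 called genes of each pathway list with the smallest p) were chosen with earlier results of these data known. Eif2ak4, Lars2, Slc7a6, Slc7a7 and the dendritic cell markers given by name were picked out after their values were seen. A gene and a sequence stretch that these rules select are not reported here. Positions, transcript lengths and overlaps came from GENCODE M21 (GRCm38, the assembly of mm10) and promoter windows from RefSeq. Of the symbols, 21777 matched GENCODE directly, 1319 by a synonym and 324 not at all. Levels per length used the principal coding transcript. The length and GC offsets covered 99.2% of the genes tested. Figures were drawn with matplotlib 3.10.9.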

Additional observations from a re-analysis of the deposited data

How the results depend on the processing

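Of the 33 members, 26 kept their sign under every alternative that gave them a value (19 for each, but 18 for Trib3, which the minimum count of 50 removed); those that turned sign were small, and the cause was not tested. The gene counts under DESeq2 (13 members up, 3243 genes called), limma-voom (12 and 3385), other scaling factors, other count filters, the fit without robust dispersions and the removal of haemoglobin and immunoglobulin genes stayed within 1.5 times those reported. Numbers shared between the groups did not pair the libraries: deviations of same-numbered libraries correlated at 0.18, 0.149 and -0.065, and libraries 1 and 2 but not 3 correlated best with their own number. With the replicate block the regulators gave 1 up, all members 14 up, and all genes 2313 up and 1773 down. Length and GC offsets gave 2386 genes up and 2650 down, against 1978 and 1424 without. They gave 1 member down, Atf4, the 1 regulator called down. With the replicate block as well they gave 5279 genes (2513 up, 2766 down) and again 1 member and 1 regulator down. In both of these fits the 11 members of the main fit stayed called up, and Mthfd2, Slc7a1 and Gars were called up too. TBK1-DKO 1 and 3 against WT 2 and 3 gave 6897 genes (3500 up, 3397 down), 18 members up and 5 down. The calls up and down were 1 and 1 for regulators and 5 and 1 for biosynthetic genes. They were 5 and 1 for transporters and 7 and 2 for synthetases. At an adjusted p under 0.01 there were 1996 genes and 2 synthetases up. Leaving out 1 library at a time gave 2308 to 4352 genes, 6 to 11 members up and 0 down, regulators 0 to 1 up, biosynthetic genes 3 to 4, transporters 3 to 4 and synthetases 0 to 4. In the simulated data for this comparison 36% of genes with a log2 change of 0.3 were called, so small changes can be missed at 3 libraries a group. Those data held 173 calls, against 3402 in the main fit, and changed genes of many levels. That share is therefore not the rate at which changes of the members are found.

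The log2 fold changes that turned sign were these. Sars was -0.012 with upper-quartile factors, -0.0036 without a filter, -0.0575 with offsets and -0.0566 with offsets and the replicate block. Wars was -0.0212 with offsets and -0.0211 with the replicate block as well. In the fit of 4 libraries, without TBK1-DKO 2 and WT 1, Sars was -0.11 (adjusted p = 0.0047, edgeR), Wars -0.018, Ddit3 -0.047, Shmt1 -0.057, Slc1a4 0.0063 and Tbk1 0.016. The adjusted p of Sars there is lowered by the choice of these 4 libraries. Leaving out 1 library at a time, values ran from -0.0503 to 0.208 for Ddit3, from -0.040 to 0.0691 for Shmt1, from -0.0568 to 0.0167 for Slc3a2, from -0.0974 to 0.0335 for Slc1a4, from -0.015 to 0.0442 for Lars, from -0.0611 to 0.0361 for Sars, from -0.00622 to 0.0598 for Wars and from -0.0996 to 0.000161 for Tbk1.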
